A study of Mus musculus with 16 samples.

Results

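The data described here are the adrenal transcriptomes of untreated WT mice at 4 weeks of age, the baseline of a study of the deSUMOylase SENP2. Members were chosen from the labels alone: all samples labelled WT, which were 8 of the 16 samples of the series, from 4 males (animals 532, 533, 539 and 543) and 4 females (animals 531, 536, 538 and 529). The other 8 samples came from mice that lack Senp2 in steroidogenic cells through an Sf1-Cre driver, and none of their columns was used, although the authors' normalisation factors were set across samples of the series. PolyA RNA from flash-frozen adrenal glands was sequenced with a stranded kit, 1 library per animal. All 8 mice carried the strain label C57BL6J, while the study's methods describe a mixed sv129-C57Bl/6 background, with WT mice as littermates of the Sf1-Cre/+::Senp2fl/fl animals. Mice were killed by decapitation in the morning. For other experiments of the study, WT mice are described in more than 1 way. In a drug treatment they carried Senp2fl/fl without Cre. In reporter tracing they carried Sf1-Cre, Senp2fl/+ and the mTmG reporter. The alleles of these 8 mice, and how many glands went into a library, were not given in the sources used here.

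The adrenal gland joins a steroid-producing cortex to a medulla of chromaffin cells, which make catecholamines. Under a fibrous capsule lie the zona glomerulosa (zG), which makes aldosterone under angiotensin II and potassium, and the zona fasciculata (zF), which makes corticosterone under ACTH and PKA. Cortical cells divide mostly near the capsule and change identity as they are displaced inwards, and the young mouse also has an inner X-zone that regresses at puberty in males and later in females. Values by animal are given in the order 532, 533, 539 and 543 for males, then 531, 536, 538 and 529 for females. Levels compared between animals are raw counts scaled to a common library total (CPM). Levels compared between genes are the deposited normalised counts divided by the median transcript length of the gene in kb, called the level per kb.

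Libraries held from 19103105 counts (male 543) to 45202473 counts (female 536), with a median of 34383788. Of 34955 genes in the table, 19945 had at least 1 count in every library, 13855 reached 1 CPM in every library and 43 reached 1000 CPM in every library. Protein-coding genes took more than 98% of counts in each library, and mitochondrially encoded genes took from 2.84% (male 539) to 4.06% (male 532). The 10 genes with most counts held 7.79% of a library on average, between 6.84% in male 539 and 9.02% in male 532. On average 1260 genes held 50% of the counts. Depth, number of detected genes, share of the leading genes, mitochondrial share and the first 3 principal components did not differ between the sexes past the threshold for any of 8 measures (exact two-sided permutation tests of 4 against 4 animals, adjusted p of 0.533 or more, smallest raw p the design allows 0.0286). Adjusted over the 8 measures, a single measure could not have passed 0.05 even with the sexes fully apart. The tests therefore cannot show that the sexes are alike in these measures.

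The marker genes matched the labelled organ in all 8 libraries. All 12 cortex markers, all 9 zG markers and all 20 chromaffin markers reached at least 1 CPM in every library. Endothelial genes (10 of 10), macrophage genes (10 of 10) and capsule genes (12 of 12) did so too. Markers of tissues that could come along in dissection were near 0 for kidney, with a summed level of 0.733 to 1.94 CPM over 10 genes, for skeletal muscle (2.23 to 3.06 CPM over 8 genes) and for gonad (6.38 to 9.11 CPM over 9 genes). Lymphocyte markers summed to 4.30 to 5.45 CPM over 8 genes. The pancreas list was the exception, at 78.4 to 99.6 CPM, and this came from Cela1 at 50.8 to 70.7 CPM and Cpb1 at 19.1 to 28.8 CPM, whereas the other 7 exocrine genes stayed under 1 CPM in every library. Hepatocyte and fat markers were high in some libraries and are described below. Since these are whole glands, a lower summed level of a cell type's markers cannot separate fewer cells from less RNA per cell.

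Steroid synthesis led the transcriptome. By level per kb the highest gene was Cyp21a1, which encodes the 21-hydroxylase of both corticosterone and aldosterone synthesis, and the next was Hsd3b1, the 3β-hydroxysteroid dehydrogenase of the cortex. Star, which moves cholesterol to the inner mitochondrial membrane, Cyp11a1, which cleaves its side chain, Scarb1, the receptor that takes up cholesterol from HDL, and Cyp11b1, the 11β-hydroxylase of the zF, were also among the 20 highest genes. The level per kb of Cyp21a1 was 502890.0, 358893, 374864 and 463709 in males and 426427, 361942, 439987 and 465524 in females, a mean of 424279 ± 53838 (SD, n = 8). The lowest Cyp21a1 animal stood above the highest animal of each of the other 19 genes. Cyp21a1 has a near-identical pseudogene copy in the mouse, so that its reads may have been split and its level is uncertain. Hsd3b1 held 228778, 206949, 216338 and 238103 per kb in males and 228785, 223331, 236982 and 254385 in females, a mean of 229207 ± 14489 (SD, n = 8), with animals closer together than for Cyp21a1. Star averaged 164413 ± 27555 per kb and Cyp11a1 84707 ± 11329 per kb (SD, n = 8).

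The same pathway led when counts were not divided by length. Hsd3b1 (chr3:98852194-98859794, mm10) held 12428, 11777, 12569 and 13055 CPM in males and 12719, 12783, 13332 and 14037 CPM in females. For Star (chr8:25806555-25815982) the values were 14943, 11628, 10818 and 15198 CPM in males and 10306, 11631, 11818 and 11473 CPM in females, with males 532 and 543 above the other 6 animals. Cyp11b1 (chr15:74834125-74841643) reached 9076, 5602, 5308 and 7965 CPM in males and 5729.9, 6705, 6365 and 7116 CPM in females, again highest in 532 and 543. Outside steroid synthesis, 6 of the 20 highest genes per kb were mitochondrially encoded subunits of the respiratory chain. Adh1, an alcohol and retinol dehydrogenase, averaged 156661 ± 14872 per kb. Chga, the chromogranin of catecholamine storage granules, averaged 91392 ± 12333, and was the first chromaffin gene in the order. Others were Eef2 (translation elongation), Sparc (an extracellular matrix protein), Cpe (a prohormone carboxypeptidase), Srrm2 (splicing), the chaperone Hsp90ab1 and the imprinted lincRNA Meg3.

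**Figure D1:**
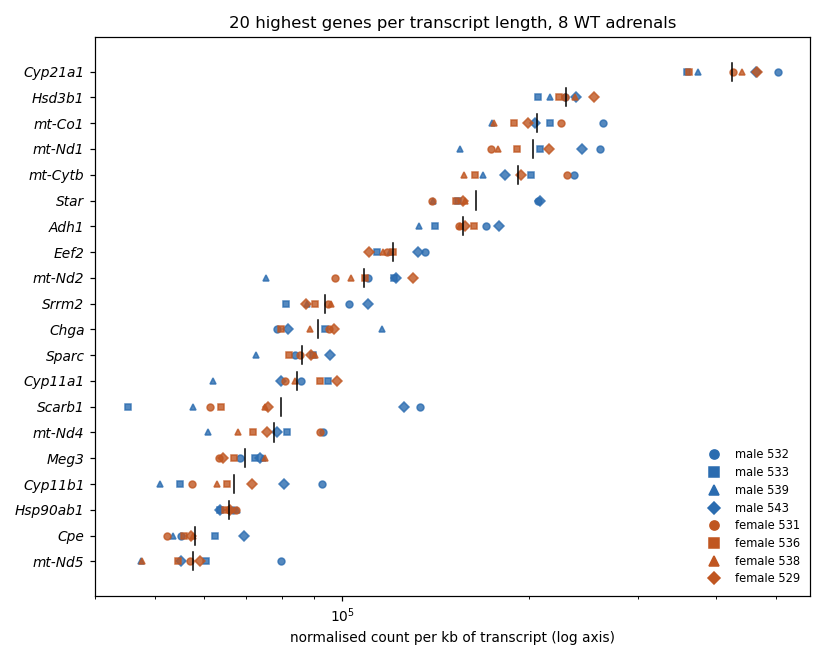
Level per kb of the 20 highest genes, with 1 point per WT animal (colour for sex, shape for animal) and a bar at the mean, on a log axis. Cyp21a1 stands apart at the top with a mean of 424279, and Hsp90ab1, at 65683 ± 1632 (SD, n = 8), has the animals closest together, while Scarb1 runs from 45117 to 133483.

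Together these 20 genes held 9.88% of the summed level per kb. The order rests on which transcript length is used. With the longest GENCODE vM21 transcript of each gene in place of the deposited median length, a choice made after seeing the data, 15 of the 20 stayed among the 20 highest, the share was 15.5%, Hsd3b1 came first and Cyp21a1 at rank 5. Srrm2 then fell to rank 87 and Meg3 to rank 317. Neighbours in the order, such as mt-Co1 (205991 ± 29273), mt-Nd1 (203130 ± 35918) and mt-Cytb (191677 ± 29713, SD, n = 8), lay within each other's spread between animals.

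The enzymes that set the end product differed widely in level. Cyp11b2, the aldosterone synthase of the zG, stood at 315, 605, 430.5 and 1120.2 CPM in males and 478, 175, 316 and 375 CPM in females. Male 543 was the highest and female 536 the lowest, and the sexes overlapped. Per kb, Cyp11b2 averaged 9247 against 67003 for Cyp11b1. Cyp17a1, the 17α-hydroxylase that the adult mouse adrenal lacks, was at 0.375 to 2.83 CPM. Hsd11b2, which inactivates corticosterone, was at 0.206 to 1.02 CPM. The electron donors of the mitochondrial steps were abundant, with Fdxr at 1231 to 1498 CPM, and Fdx1 at 1429, 939.9, 732 and 1713 CPM in males and 817, 835, 894 and 879.8 CPM in females. Fdx1 was highest in 532 and 543, the animals that were also highest for Star and Cyp11b1.

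Most signalling genes that act on the zones were present in every animal. The ACTH receptor Mc2r was at 563, 422, 499 and 484 CPM in males and 414, 450.1, 508 and 520.2 CPM in females, and its accessory protein Mrap at 318, 207, 169 and 367 CPM in males and 224, 154, 226 and 303 CPM in females. Over the 22 tested genes of the ACTH and PKA list the median within-sex SD of log2 CPM was 0.17. It was 0.18 over all tested genes, and 0.13 and 0.11 over genes at 10 to 100 and 100 to 1000 CPM. The summed level of the list genes differed by 1.11 times between the highest and the lowest animal. Gnas, the stimulatory G protein, was the most abundant of them at 2036 to 2258 CPM, and the regulatory subunit Prkar1a ranged from 529 to 704 CPM. For aldosterone control, the angiotensin receptors Agtr1a and Agtr1b were at 207 to 313 and 30.3 to 47.8 CPM. The potassium channel Kcnk3 (2598 to 2953 CPM) was above Kcnk9 (261 to 529 CPM), and per kb the values were 39503 and 979. Among 31 WNT genes, 30 reached 1 CPM in every animal. The zG ligand Wnt4 was at 332, 500.03, 511 and 288 CPM in males and 315, 527, 492 and 381 CPM in females, the target Axin2 at 81.2 to 132 CPM, and the secreted antagonist Frzb at 556, 261, 491 and 526 CPM in males and 530.5, 596, 673 and 592 CPM in females, lowest in male 533. Shh, made by zG cells, was at 49.3 to 87.1 CPM and its capsular effector Gli1 at 14.9 to 20.4 CPM.

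The SUMO pathway is the subject of the series. Its 22 genes summed to 1733 to 2022 CPM, a ratio of 1.17 between the highest and the lowest animal, and their median within-sex SD was 0.11, against 0.18 over all tested genes and 0.13 and 0.11 over genes at 10 to 100 and 100 to 1000 CPM. This is the spread of ordinary genes at those levels. Senp2 was at 60.8, 60.3, 55.5 and 61.2 CPM in males and 53.6, 54.0, 57.0 and 46.2 CPM in females, and female 529 was the lowest. Sumo2 was at 0.533 to 1.22 CPM. Sumo2 and several ribosomal protein genes have near-identical copies elsewhere in the genome, so that reads may have been split or lost in counting, and those levels are uncertain.

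Between the sexes, few genes passed the test, and those that did lay on the sex chromosomes. With edgeR's quasi-likelihood test over 17248 genes (Benjamini-Hochberg adjusted p under 0.05 and a log2 fold change over 0.58), 7 genes were called, which is 0.0406% of those tested, 2 higher in females (0.0116%) and 5 lower (0.029%). At an unadjusted p under 0.05 there were 535. With DESeq2 there were 13 calls, and the 6 added genes (Cdca7l, Fetub, Fmo1, Mme, Olfr1419 and Susd3) were autosomal. Leaving out male 539 added the autosomal Dusp8 and Errfi1. Xist, the lincRNA that silences 1 X chromosome, was at 0.549, 0.272, 0.125 and 0.366 CPM in males and 461, 575, 544 and 651 CPM in females, a log2 fold change of 10.77 (SE 0.28) (edgeR adjusted p 7.72e-08). The Y-linked Ddx3y was at 107, 102, 102 and 100.4 CPM in males and at 0, 0, 0.0272 and 0 CPM in females (edgeR adjusted p 3.52e-10). Eif2s3y, Uty and Kdm5d, Y-linked genes with an X-linked partner, and the Y-linked lincRNA Gm29650 had the same split, with males at 4.14 CPM or more and females at 0.0627 CPM or less. No fold change is given for them because Ddx3y, Eif2s3y, Uty and Gm29650 had no count in 3 or more of the 4 females, and Kdm5d in 2. All 8 libraries matched the sex on their labels.

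Kdm6a was the other gene called higher in females. It encodes an X-linked histone H3K27 demethylase that is known to escape X inactivation, and it was at 53.3, 51.3, 54.4 and 45.4 CPM in males and 72.0, 90.2, 83.8 and 88.8 CPM in females, with no overlap. Its log2 fold change, females over males, was 0.71 (SE 0.08), edgeR adjusted p 0.0123. The call was lost without male 533 or 539 or female 536, 538 or 529, each left out alone, with edgeR adjusted p from 0.0535 to 0.0749. Kdm5c, another escape gene, was at 123, 111, 128 and 118 CPM in males and 175, 159, 173 and 157 CPM in females and did not pass, at 0.47 (SE 0.07) and edgeR adjusted p 0.0972. No gene of the steroid, cholesterol, ACTH, WNT, clock or interferon lists was called. The circadian gene Per2 came nearest among the clock genes, with 172, 143, 150.0 and 192 CPM in males and 99.8, 116, 122 and 113 CPM in females, at -0.55 (SE 0.11) and edgeR adjusted p 0.849.

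Of the 4 X-zone genes of the list, Akr1c18 and Pik3c2g were higher in some females, and none was called. Akr1c18, the 20α-hydroxysteroid dehydrogenase of the X-zone, was at 31.9, 1.36, 7.99 and 50.8 CPM in males and 118, 16.5, 238 and 336 CPM in females. Females 531, 538 and 529 exceeded every male, and female 536 fell inside the male range. Its log2 fold change was 2.95 (SE 1.22), edgeR adjusted p 0.9999. Pik3c2g, another X-zone gene, was at 0.275, 0.109, 0 and 0.105 CPM in males and 2.51, 0.133, 1.90 and 8.27 CPM in females, with the same 3 females highest. Thrb and Aspa, the other list members, are not given by animal. The median log2 fold change of the 3 tested members, females over males, was 0.33. Akr1c18 gave most of the range of the list sum, which ran from 49.5 to 410.6 CPM.

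Most of the variation between animals was small. The common biological coefficient of variation, the spread between animals of 1 sex beyond counting error, was 18.2% (jackknife SE 3.20, n = 8). The median gene had a within-sex SD of 0.18 on the log2 CPM scale. This spread depended on level: the median SD was 0.44 for genes under 1 CPM, where counting alone gives 0.35, and fell to 0.13 between 10 and 100 CPM and 0.11 between 100 and 1000 CPM, where counting gives 0.042 and 0.020. Above 1000 CPM it was 0.14 over 58 genes. For 255 of the 17248 genes the SD exceeded 1.

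Genes with the smallest spread, among those with a mean of at least 50 CPM, lay near or below counting error, and their SDs moved with the settings. Arpc2, a subunit of the Arp2/3 actin nucleator, was at 181, 187, 192 and 178 CPM in males and 178, 185, 179.9 and 178 CPM in females, an SD of 0.00992 where counting gives 0.018. Its SD was 0.0388 when libraries were scaled by their size alone, 0.0184 with sex left out of the model, 0.0179 with no filter on low counts and 0.0152 with libraries thinned to the smallest. Vps52 and Bnip2 (membrane traffic and cell signalling), Virma (RNA methylation), Drg1 (a GTPase), Uba2 (the SUMO-activating enzyme subunit), Stat6, Cct7 (chaperonin), Flywch1 and Capzb (actin capping) completed the 10, all with an SD of 0.0243 or less, below the counting error for all but Stat6, Cct7 and Capzb. Scaled by library size alone, the other 9 SDs ran from 0.0340 (Stat6) to 0.0522 (Bnip2), and that of Uba2 was 0.00826 without female 529 against 0.0216 with it. Genes with the largest spread fell into a few kinds. Of the 20 with the largest SD at a mean of at least 5 CPM, 11 were plasma proteins of hepatocytes, led by Alb (SD 4.66) and including Fga, Fgb, Fgg, Apoa1, Apoa2, Gc, Ttr, Hpx, Ahsg and Serpina1b. Pla2g2f (4.41), Rps3a3 (3.95), Klk1b22 (3.75), Ifi44l (3.45) and Ndufa12-ps (2.95) were at 2 separate levels among animals. Ren1 (renin), Gbp2b, Ifi202b (interferon-inducible genes) and Ucp1 (the uncoupling protein of brown fat) were the others.

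**Figure D2:**
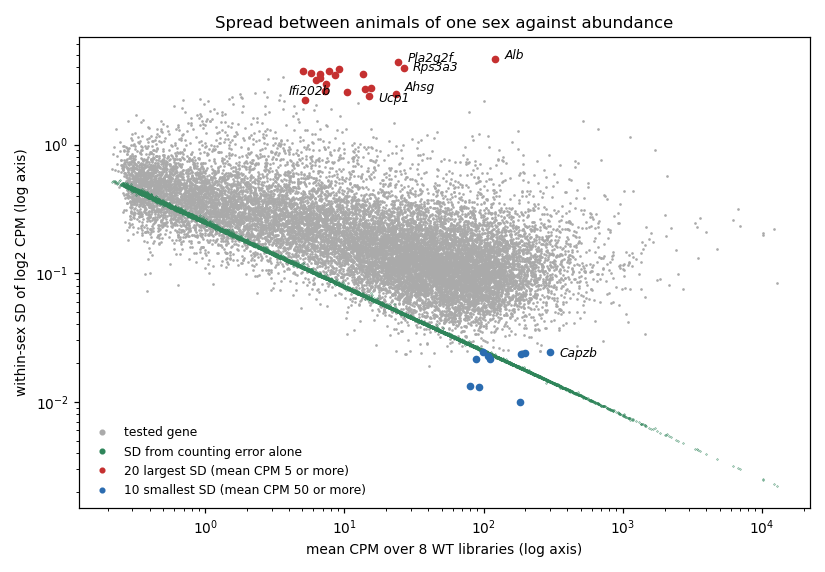
Within-sex SD of log2 CPM against mean CPM (both axes log) for the tested genes (grey), with the SD expected from counting alone (green), the 20 largest (red) and 10 smallest (blue) SDs, and some of these named. The bulk of genes falls from a median of 0.44 under 1 CPM to 0.11 between 100 and 1000 CPM, and Alb stands highest at 4.66.

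Some cell type and pathway genes were high or low together in the same animals. Among 34 lists of cell type and pathway genes, the summed level of 10 differed more than 2-fold between the highest and the lowest animal: red cell (11.6 times), liver (8.49), X-zone (8.29), fat (4.43), interferon (3.23), cell cycle (2.69), kidney (2.64, at the near-0 levels above), immediate early (2.31), capsule (2.21) and pericyte (2.1). Which animals were high or low was read from these data and then counted, so that each count below is set beside the share of all 17248 tested genes with the same order of animals.

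**Figure D3:**
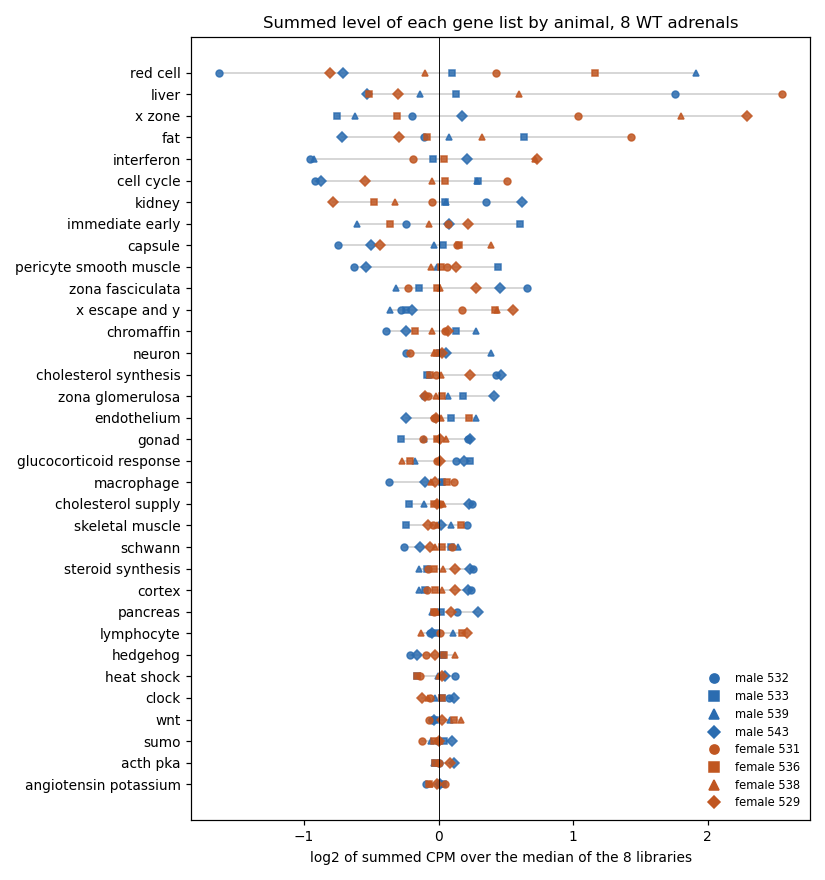
Summed CPM of each gene list (rows) in each WT animal, as the log2 of its ratio to the median of the 8 libraries, with 1 point per animal (colour for sex, shape for animal) and lines for the range. The ACTH and PKA, SUMO and clock lists sit close to 0, whereas red cell (43.5 to 506 CPM), liver (190.2 to 1615 CPM) and fat (1062 to 4711 CPM) spread widely.

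Genes of dividing cells were low together in 3 animals. The proliferation marker Mki67 was at 9.47, 33.1, 37.9 and 9.58 CPM in males and 54.0, 28.0, 27.1 and 10.9 CPM in females. Ccnb2, a mitotic cyclin, was at 2.68, 7.74, 9.15 and 2.15 CPM in males and 13.5, 6.90, 7.59 and 1.79 CPM in females. Cdk1, the mitotic kinase, was at 5.46, 16.6, 16.1 and 6.54 CPM in males and 20.9, 13.8, 13.2 and 7.35 CPM in females. In each case 532, 543 and 529 were lowest and 531 was highest, so that the low group held both sexes. The same 3 animals were lowest for 18 of the 19 cell cycle genes, against 9.32% of all tested genes. The exception was the replication helicase gene Mcm6, at 30.5, 86.4, 88.9 and 30.4 CPM in males and 67.1, 62.6, 49.6 and 59.1 CPM in females. The summed level of the list was 208, 482, 481 and 215 CPM in males and 561, 407, 381 and 270.2 CPM in females. Without 531 and 532, the libraries with most hepatocyte RNA, 543 and 529 were lowest of the other 6 for 18 of the 19, against 17.8% of tested genes.

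Promoters of these genes are shown for Ccnb2 and Cdk1 because the CCAAT box is a well known element of mitotic promoters. The 250 bases before the start were taken from RefSeq (GRCm38.p6), at chr9:70421555-70421804 and chr10:69352913-69353162, both on the minus strand, with capitals marking CCAAT on either strand.
Ccnb2: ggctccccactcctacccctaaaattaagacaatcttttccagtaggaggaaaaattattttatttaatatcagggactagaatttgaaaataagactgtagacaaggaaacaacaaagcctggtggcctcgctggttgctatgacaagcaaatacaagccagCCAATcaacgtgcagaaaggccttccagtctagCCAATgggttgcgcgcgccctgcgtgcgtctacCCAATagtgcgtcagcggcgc
Cdk1: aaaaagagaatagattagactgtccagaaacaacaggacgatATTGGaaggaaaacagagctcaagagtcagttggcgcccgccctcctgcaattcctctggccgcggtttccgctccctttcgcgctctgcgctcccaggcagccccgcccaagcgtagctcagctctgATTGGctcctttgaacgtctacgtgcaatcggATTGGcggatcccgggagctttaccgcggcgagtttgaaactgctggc
Each holds 3 matches, and the nearest begins 21 bases before the start in Ccnb2 and 48 bases before it in Cdk1. In windows of the 250 bases before the start, CCAAT on either strand was found for 15 of the 17 cell cycle genes with a window. It was found in 33.8% of all 32851 windows. A gene counted if any of its windows held a match, whereas the share is of single windows. TTTGAA, the letters of the cell cycle homology element, was found on either strand for 6 of 17, and in 16.0% of all windows. A match is a description of letters and not of a bound site.

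The zF and cholesterol genes had in part the opposite order. Akr1b7, an ACTH-dependent aldose reductase that marks the zF, was at 3436, 947, 774 and 2826 CPM in males and 917, 1018, 1459 and 2254 CPM in females. The 3 animals lowest for dividing cells, 532, 543 and 529, were its 3 highest. Scarb1 was at 3393, 1201, 1565 and 3223 CPM in males and 1590.0, 1711, 1979 and 1963 CPM in females, with 532 and 543 highest and 529 among the others. Dhcr7, the last enzyme of cholesterol synthesis, was at 915, 381, 451 and 838 CPM in males and 391, 501, 532 and 527 CPM in females, again with 532 and 543 highest. The order with 532, 543 and 529 highest held for 3 of 5 zF genes, 4 of 12 cortex genes, 6 of 21 cholesterol synthesis genes, 3 of 18 steroid synthesis genes, 2 of 17 cholesterol supply genes and 1 of 22 ACTH and PKA genes, against 2.6% of all tested genes. Outside the zF list, most genes did not share it. These lists have members in common, so the counts overlap. The 3 steroid synthesis genes (Akr1b7, Cyp11b1 and Cyp21a1) and the 1 ACTH and PKA gene (Mrap) were also zF or cortex genes. Without 531 and 532, 543 and 529 were highest for 3 of 5 zF, 4 of 12 cortex, 8 of 21 cholesterol synthesis, 3 of 18 steroid synthesis, 3 of 17 cholesterol supply and 4 of 22 ACTH and PKA genes, against 6.23% of tested genes. The zF sum was 14136, 8141, 7235 and 12358 CPM in males and 7666, 8915, 9062 and 10889 CPM in females.

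Most capsule genes were low in the same animals as the dividing-cell genes. Col1a1, a fibrillar collagen, was at 92.1, 263, 224 and 121 CPM in males and 323, 283, 366 and 173 CPM in females, and Col3a1 at 126, 418, 360.0 and 183 CPM in males and 521, 432, 584 and 228 CPM in females. For 9 of the 12 capsule genes 532, 543 and 529 were the 3 lowest, against 9.32% of tested genes. Without 531 and 532, 543 and 529 were lowest for 9 of 12 (17.8%). Chromaffin genes were lowest in 532 and 543 for 10 of 20 (13.2% of tested genes) and highest in 539 for 13 of 20 (24.4%). Without 531 and 532, 543 was lowest for 14 of 20 (30.3%) and 539 highest for 14 of 20 (30.0%). Th, the rate-limiting enzyme of catecholamine synthesis, was at 154, 310.1, 267 and 173 CPM in males and 242, 206, 215 and 272 CPM in females, lowest in 532 and 543 but highest in 533. Pnmt, which turns noradrenaline into adrenaline, was at 266, 165, 252 and 216 CPM in males and 176, 184, 195 and 182 CPM in females, highest in 532. The summed chromaffin level was 4748, 6811, 7542 and 5253 CPM in males and 6439, 5517, 5998 and 6529.8 CPM in females.

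Nr5a1, the gene of the steroidogenic factor SF-1, stood out in 1 animal. It was at 1139, 945, 915 and 1334 CPM in males and 1032, 981, 1016 and 2090.4 CPM in females, and female 529 exceeded every other animal by more than the whole range of the other 7. Star, Cyp11a1, Hsd3b1 and Mc2r are genes that SF-1 is known to activate. Of these, 529 was narrowly the highest animal for Hsd3b1 and Cyp11a1, but not for Star or Mc2r. Akr1b7, Cyp11b1 and Cyp21a1 were highest in 529 among the females, and male 532 was above 529 for each. Cyp11a1 was at 3939.6, 4558, 3037 and 3692 CPM in males and 3797, 4441, 3977 and 4574 CPM in females. The values of the other genes are given above, per kb for Cyp21a1. Senp2 was lowest in this animal, as given above. The relation of these values to each other was not tested. The Cre driver of the study is named for Nr5a1 (Sf-1(Nr5a1)-Cre). Which of these mice carried the driver was not given, and its part in the Nr5a1 values was not tested.

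**Figure D4:**
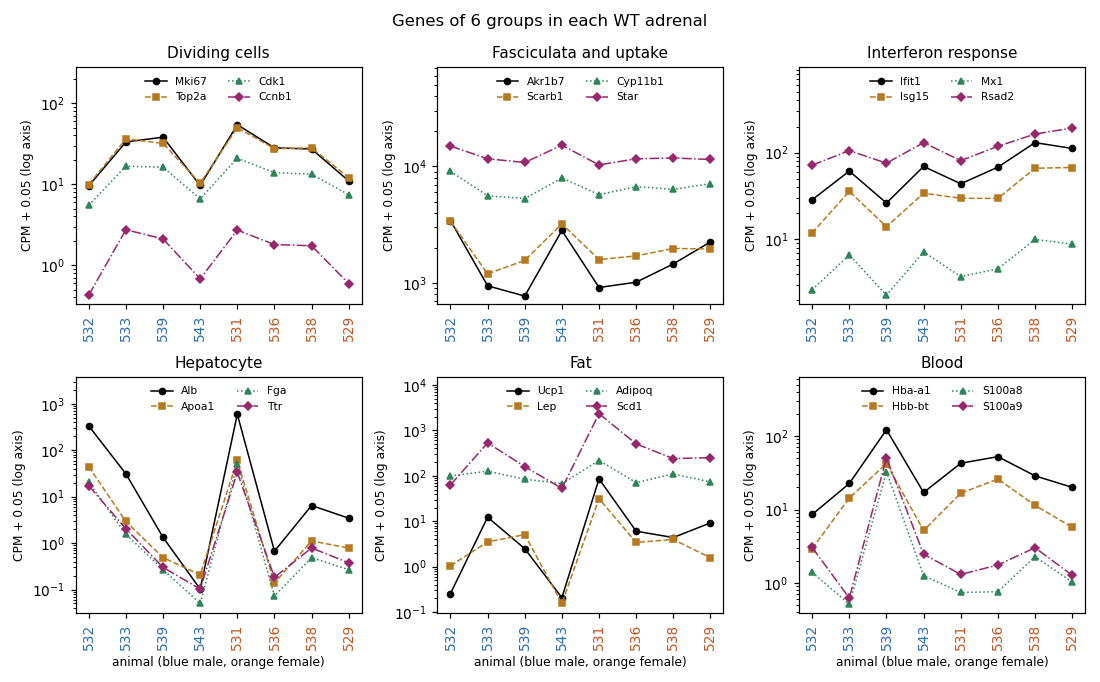
CPM of 4 genes of each of 6 groups in every WT animal (log axes, with 0.05 added), males in blue and females in orange along the axis. Dividing-cell genes dip together in 532, 543 and 529, interferon genes in 532 and 539, hepatocyte genes peak in 532 and 531, fat genes peak in 531, Akr1b7 is highest in 532, 543 and 529, and S100a8 and S100a9 peak in 539 alone.

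Interferon-stimulated genes differed between animals as a block. Ifit1, an antiviral RNA-binding protein, was at 28.6, 61.3, 26.2 and 69.3 CPM in males and 43.7, 68.0, 130.5 and 112 CPM in females. Isg15, a ubiquitin-like modifier, was at 11.8, 35.7, 13.9 and 34.0 CPM in males and 29.7, 29.6, 66.1 and 67.4 CPM in females. Males 532 and 539 were the lowest and females 538 and 529 the highest. The same 2 males were lowest for 12 of 13 genes of the list, the exception being Mx2, against 3.59% of all tested genes. No interferon gene was called between the sexes (median log2 fold change of the 13 genes, females over males, 0.72, against -0.0036 over all tested genes). Without 531 and 532, male 539 was the lowest of the other 6 animals for all 13 genes, against 13.1% of tested genes.

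The promoters of Ifit1 and Isg15 are printed because both hold the letters of the interferon-stimulated response element, GAAA, any 2 bases, then GAAA. Capitals mark matches on either strand in the 250 bases before the start (RefSeq, GRCm38.p6), at chr19:34640639-34640888 on the plus strand and chr4:156200819-156201068 on the minus strand.
Ifit1: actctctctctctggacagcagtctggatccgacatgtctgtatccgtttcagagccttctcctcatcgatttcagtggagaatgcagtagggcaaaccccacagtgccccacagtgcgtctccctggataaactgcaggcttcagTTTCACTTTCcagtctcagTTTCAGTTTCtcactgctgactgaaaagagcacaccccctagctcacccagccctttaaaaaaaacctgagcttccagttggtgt
Isg15: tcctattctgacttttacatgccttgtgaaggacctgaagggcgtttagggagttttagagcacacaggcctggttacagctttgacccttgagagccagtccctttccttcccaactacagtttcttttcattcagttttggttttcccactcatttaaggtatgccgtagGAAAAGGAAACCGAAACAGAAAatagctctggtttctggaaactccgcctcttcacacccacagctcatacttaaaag
The 2 matches of Ifit1 begin 85 and 104 bases before the start, and Isg15 holds 3 that overlap. Of 9 interferon genes with a window, 6 held the element, as did 2.98% of all 32851 windows. AAGGTCA, letters of the site that SF-1 is known to bind, was found on either strand for 1 of 12 steroid synthesis genes with a window (Akr1b7) and in 4.08% of all windows. Only this spelling was searched, so the count does not cover other forms of the site.

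Immediate early genes, which respond to stimuli within minutes, were highest in male 533. Nr4a1, an orphan nuclear receptor induced by ACTH, was at 576, 1364, 91.0 and 913 CPM in males and 589, 329, 478 and 976 CPM in females, and Fos at 15.3, 45.7, 8.96 and 11.2 CPM in males and 43.2, 9.89, 28.5 and 25.0 CPM in females. Junb was at 131, 325, 51.3 and 68.2 CPM in males and 195, 65.5, 216 and 226 CPM in females. Male 533 was highest for 16 of the 22 genes, against 13% of all tested genes, and for 3 of 11 glucocorticoid-response genes. Without 531 and 532 these counts were 18 of 22 and 4 of 11, against 18.6% of tested genes. Dusp1 is a member of both lists. Clock genes differed less, with a summed ratio of 1.18 between animals. Nr1d1, a repressor of the circadian loop, was at 379, 348, 376 and 378 CPM in males and 528, 437, 432 and 421 CPM in females.

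Hepatocyte genes were concentrated in 2 libraries. Alb, the gene of serum albumin, was at 334, 31.0, 1.28 and 0.0523 CPM in males and 597, 0.619, 6.40 and 3.39 CPM in females. Male 532 and female 531 were the highest, and the other 6 animals ranged from 0.0523 to 31.0 CPM. These 2 animals were highest for 8 of 9 tested hepatocyte markers, against 3.78% of all tested genes, the exception being Cyp2e1 (female 538 above male 532). Liver genes outside the list showed the same: Cps1, the first enzyme of the urea cycle, was at 23.7, 0.869, 0.0937 and 0.105 CPM in males and 32.7, 0.0221, 0.163 and 0.136 CPM in females, and Hnf4a, a liver transcription factor, at 3.26, 0.0815, 0.0625 and 0.0523 CPM in males and 3.42, 0, 0.0272 and 0.0271 CPM in females. The summed level of the marker list was 931, 301, 250.02 and 190.2 CPM in males and 1615, 193, 418 and 223 CPM in females. The part of hepatocyte RNA in the other differences of these libraries was not tested. Values without both libraries stand beside the counts of the other groups.

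Fat genes were highest in female 531. Ucp1 was at 0.206, 12.2, 2.44 and 0.157 CPM in males and 85.8, 5.97, 4.33 and 9.14 CPM in females. Lep, the gene of leptin, was at 0.996, 3.45, 5.03 and 0.105 CPM in males and 31.3, 3.36, 3.92 and 1.52 CPM in females. Female 531 was highest for all 10 fat markers, against 14.3% of all tested genes. Adipoq, an adipocyte hormone gene, varied less than these, at 99.5, 126, 84.4 and 67.0 CPM in males and 217, 70.9, 109.6 and 73.4 CPM in females. Scd1, a fatty acid desaturase of fat and liver that was not in the list, was at 63.1, 532, 159 and 52.9 CPM in males and 2342, 505, 239.6 and 252 CPM in females.

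Blood genes were highest in male 539. The globin gene Hba-a1 was at 8.51, 22.6, 122 and 17.0 CPM in males and 42.6, 52.5, 28.7 and 19.995 CPM in females, and 539 was highest for 4 of 5 red cell genes, against 24.4% of all tested genes, and for 4 of 5 without 531 and 532 (30.0%). The globin genes are close copies of each other, so the division of reads between them is uncertain. Neutrophil genes, chosen after their values were seen, were high in the same animal alone. S100a9 was at 2.99, 0.570, 50.5 and 2.41 CPM in males and 1.253, 1.70, 2.97 and 1.22 CPM in females, Lcn2 at 2.27, 1.249, 13.8 and 1.15 CPM in males and 1.35, 0.730, 1.39 and 0.271 CPM in females, and Mmp9 at 1.06, 0.652, 14.8 and 0.681 CPM in males and 0.658, 1.02, 0.816 and 0.733 CPM in females. Lymphocyte markers in 539 summed to 5.06 CPM and macrophage markers to 408 CPM, both within the range of the other animals.

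The leading principal components carried genes of the same groups at some of their ends. The first 4 held 26.5%, 22.7%, 14.98% and 12.1% of the variance. The first ran from male 543 (-43.9) to female 531 (44.2), with Xist, Alb, Ucp1, Fga and Lep at 1 end and Ddx3y, Eif2s3y, Uty, Kdm5d and Klk1b22 at the other. On the second, male 532 lay at -45.2 and female 531 at -22.0, and the 5 genes at that end were Alb, Fgb, Fga, Apoa1 and Fgg. At its other end were Gm5874, Xist, Gt(ROSA)26Sor, Gm7240 and Zfp429, which are not hepatocyte, fat or blood markers. The third separated male 539 (41.0) from the others, and S100a9, S100a8 and Lcn2 followed the Y-linked genes at its end. None of these 3 components differed between the sexes past the threshold (exact two-sided permutation tests, adjusted p of 0.533 or more). Adjusted with the other measures, a component that alone set the sexes fully apart could not have passed, so the tests decide little.

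Single genes varied in a further way, between 2 separate levels. A rule set after seeing the values took genes that reached 2 CPM and fell into 2 levels separated by at least 1.5 on the log2 scale and by 1.5 times the range within a level, with at least 2 animals at each. It found 98 genes. For 74 of them, such as Cps1, Hnf4a and Apob, only 531 and 532 were at the high level. A further 6 were the Y-linked genes and Xist. The other 18 fell into 12 different divisions of the animals, and 8 of the 18 were pseudogenes in the annotation. Of these, 7 were of the processed type, copies of spliced transcripts inserted elsewhere in the genome, and Capza1-ps1 was listed as a pseudogene without a type. Cd1d2, a polymorphic pseudogene (coding in some strains), was counted apart.

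Rps3a3, a processed pseudogene of a ribosomal protein gene (chr13:108670603-108671397), was at 54.2, 42.7, 0.2498 and 0.157 CPM in males and 0.251, 41.9, 40.1 and 34.4 CPM in females. Males 539 and 543 and female 531 were at the low level and no animal lay between. Its nearest coding gene was Rps3a1 (chr3:86137940-86142702), at 22.5, 23.3, 44.5 and 43.1 CPM in males and 41.7, 23.0, 19.98 and 17.6 CPM in females, which was higher in the same 3 animals. Over 795 aligned bases the transcripts were 98.9% identical, so that reads can pass between them. Ndufa12-ps (chr5:130188395-130188796), a copy of a complex I subunit gene, was at 9.37, 0.0815, 8.31 and 17.3 CPM in males and 8.87, 0.133, 7.05 and 7.52 CPM in females, low in 533 and 536. Ndufa12 itself (chr10:94198720-94221443) was at 23.5, 32.4, 23.3 and 23.6 CPM in males and 29.4, 28.4, 23.3 and 28.6 CPM in females.

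The likeness of both pairs is shown in 90 bases of the coding sequence (GENCODE vM21, GRCm38), bases 171 to 260 for Rps3a1 and 46 to 135 for Ndufa12, counted from 1 at the A of the start codon, with the bases that differ in capitals.
Rps3a1: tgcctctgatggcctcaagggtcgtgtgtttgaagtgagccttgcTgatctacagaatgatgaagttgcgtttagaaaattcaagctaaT
Rps3a3: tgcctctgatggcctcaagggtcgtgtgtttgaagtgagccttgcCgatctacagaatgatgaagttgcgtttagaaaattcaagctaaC
Ndufa12: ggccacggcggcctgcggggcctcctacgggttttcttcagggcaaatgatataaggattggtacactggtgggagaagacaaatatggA
Ndufa12-ps: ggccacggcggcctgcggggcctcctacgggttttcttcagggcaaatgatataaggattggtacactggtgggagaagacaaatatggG
The first pair differs at 2 positions of the 90 and the second at 1. Over the whole aligned coding sequence there were 8 differences in 791 bases and 2 in 399.

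For 4 of the 8 pseudogenes, another gene with the same low animals lay on the chromosome of the coding gene, and the pseudogene lay on a different one. Any distance on the chromosome counted, and how often other genes picked by this rule would share a chromosome was not tested. Cd1d2, the polymorphic pseudogene named above, of the CD1 antigen-presenting family (chr3:86986551-86989780) and 96.4% identical to Cd1d1, was at 5.66, 3.45, 0.219 and 0.209 CPM in males and 0.125, 4.80, 5.63 and 7.60 CPM in females, low in 539, 543 and 531 like Rps3a3, and lies 0.849 Mb from Rps3a1. Tchh, a hair follicle protein gene 7.30 Mb from Rps3a1, was at 5.25, 5.73, 1.19 and 1.05 CPM in males and 1.13, 7.43, 7.10 and 6.16 CPM in females, with the same low animals. Cfap54, a ciliary protein gene (chr10:92775619-93081618) 1.42 Mb from Ndufa12, was at 89.9, 8.91, 94.1 and 168 CPM in males and 82.1, 8.61, 97.3 and 81.6 CPM in females, low in 533 and 536 like Ndufa12-ps. Pla2g2f, a secreted phospholipase (chr4:138750533-138757626), was at 27.3, 0.0272, 36.7 and 27.8 CPM in males and 32.7, 0, 35.7 and 34.3 CPM in females, low in the same 2 animals as Gm10036, a pseudogene copy of Rpl11, from which Pla2g2f lies 2.72 Mb. Ifi44l, an interferon-induced gene 2.16 Mb from Acadm, was at 8.75, 0.0543, 7.93 and 0.105 CPM in males and 11.7, 16.0, 0.0816 and 24.2 CPM in females, low in 533, 543 and 538 like Gm5131, a copy of Acadm.

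**Figure D5:**
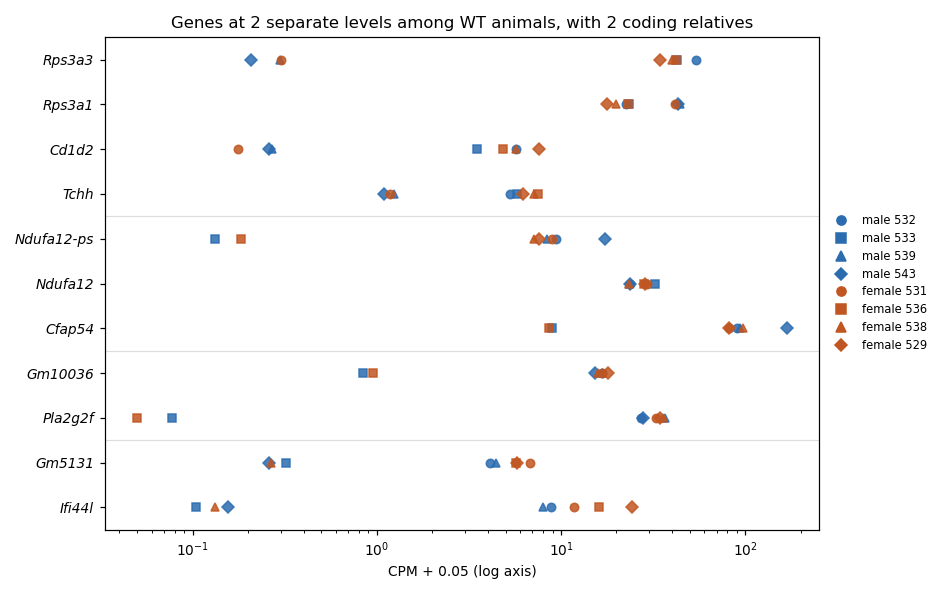
CPM (log axis, with 0.05 added) of genes at 2 levels and of the coding relatives Rps3a1 and Ndufa12, with 1 point per WT animal, colour for sex and shape for animal. Rps3a3, Cd1d2 and Tchh are low in 539, 543 and 531, in which Rps3a1 is higher, and Ndufa12-ps, Cfap54, Gm10036 and Pla2g2f are low in 533 and 536, and Gm5131 and Ifi44l in 533, 543 and 538.

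The other 4 pseudogenes had no such partner. Capza1-ps1 was at 2.57, 3.07, 0.156 and 0.105 CPM in males and 2.76, 2.83, 3.24 and 2.90 CPM in females, low in 539 and 543. Its coding relative Capza1, an actin-capping protein gene, was at 9.17, 10.9, 18.6 and 16.1 CPM in males and 8.74, 10.5, 10.5 and 10.9 CPM in females, higher in those 2 males. Gm6969 (a copy of Cox7a2l), Ctdsp2-ps (Ctdsp2) and Gm14121 (Btbd1) divided the animals in 3 further ways. In Gm10036, at 16.7, 0.788, 16.7 and 15.2 CPM in males and 16.7, 0.907, 15.9 and 17.9 CPM in females, the high level stood above the coding gene Rpl11 itself, at 5.93 to 7.74 CPM. Among the other genes at 2 levels, Gm43305, a processed transcript on chromosome 14, was at 0, 0, 25.98 and 0 CPM in males and 10.4, 0, 13.9 and 0 CPM in females, and Klk1b22, a kallikrein gene, at 11.1, 4.89, 0 and 12.6 CPM in males and 0, 0, 6.48 and 5.10 CPM in females. None of these divisions separated the sexes.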

How the data were processed

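RNA-seq libraries of 8 WT adrenals were analysed (4 males, 4 females). The authors counted, per gene, the reads with a single alignment with HTSeq 0.6.1p1 after alignment with STAR 2.5.3a to mm10 (tools and build per the labels, which also name bcl2fastq 2.17.1.14 and DESeq2 1.16.1) and deposited raw counts, counts normalised by 1 factor per library, and these divided by the median transcript length. In all 8 libraries the normalised column was the raw count times a single factor and the division by length was as stated. Whether counting used strand is not given in the sources used here. The deposited columns of the authors' own comparisons (log2 fold changes, p-values and adjusted p-values) were not used, and 0 value columns were left unmapped.

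Sexes were compared with edgeR 4.0.16 (R 4.3.3; quasi-likelihood F test, TMM factors, filterByExpr, which kept 17248 genes with 99.9% of counts). Calls needed a Benjamini-Hochberg adjusted p under 0.05 and an absolute log2 fold change over 0.58. Spread was the pooled within-sex SD of log2 CPM with a prior count of 2. Alternatives used DESeq2 1.42.0 and limma 3.58.1, and scripts were tested on simulated data. Python 3.11.15, pandas 2.3.3, Biopython 1.88, BLAST 2.17.0 and matplotlib 3.10.9 served for lists, sequences and figures. Pseudogenes were matched to their nearest coding transcript by BLAST against GENCODE vM21. Replicate libraries of a sex differed by more than counting noise (chi-square per degree of freedom from 16.4 to 57.3), so that all 8 were counted separately.

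Named genes were the 20 highest by level per kb, the 10 with most counts, all genes called between the sexes, the 20 with the largest and 10 with the smallest spread, the 5 at each end of the first 2 components, members of the gene lists, and Senp2. Genes at 2 levels, neutrophil genes, Scd1, Cps1, Hnf4a, Cidea and the genes used as coding relatives were chosen after their values were seen. Members and lists were chosen with earlier results of these data known. Nov and Fshr were not analysed here, and single values of some SUMO pathway genes are not reported here. P-values set the difference between the sexes against the spread between these animals.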

Additional observations from a re-analysis of the deposited data

Results flagged for a closer look

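Chosen genes, the lists and library measures were each examined in the 4 animals of each sex, which gave 268 groups of 4. In 42 groups an animal lay far from the other 3 (gap to the nearest, over the whole range, above Dixon's 95% critical value). Chance alone gives about 1 in 20. Many of these genes were described because an animal stood apart, so that the count is not a rate.

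Hepatocyte values set male 532 and female 531 apart. The liver list summed to 931 CPM in 532 (the other males 190.2 to 301) and to 1615 CPM in 531 (the other females 193 to 418). In 532 Alb was at 334 CPM, Apoa1 at 44.3, Fga at 20.4, Ttr at 17.1, Cps1 at 23.7, Hnf4a at 3.26 and Gbp2b, which is no liver marker, at 14.0 CPM. In 531 Alb was at 597 CPM, Apoa1 at 60.1, Fga at 50.3, Ttr at 33.3, Cps1 at 32.7 and Hnf4a at 3.42 CPM. Fat and lipid genes also set 531 apart, with Ucp1 at 85.8 CPM, Lep at 31.3, Cidea at 156, Scd1 at 2342 and Acadm, a fatty acid oxidation enzyme, at 409.8 CPM (the other females 324 to 331).

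Male 539 stood apart for Hba-a1 (122 CPM), S100a9 (50.5), S100a8 (32.7), Lcn2 (13.8), Retnlg (11.0), Mmp9 (14.8) and Ltf (12.5 CPM), for the WNT list (3787 CPM, the other males 3463 to 3505), for Gm43305 (25.98 CPM, the other males 0) and Gm14121 (0.156 CPM), and was lowest for Senp2 among the males (55.5 CPM, the others 60.3 to 61.2).

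Nr5a1 was at 2090.4 CPM in female 529, with the other females from 981 to 1032 CPM. Nr1d1 was at 348 CPM in male 533 (the others 376 to 379) and at 528 CPM in female 531 (the others 421 to 437). Ndufa12 was highest in male 533 at 32.4 CPM and lowest in female 538 at 23.3 CPM. Genes at 2 levels were marked in Gm10036 (0.788 CPM in 533 and 0.907 CPM in 536), Pla2g2f (0 CPM in 536), Gm5131 (0.218 CPM in 538), Ctdsp2-ps (3.19 CPM in 543) and BC018473 (3.36 CPM in 536).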

How the results depend on the processing

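The 7 sex calls became 13 with DESeq2, which added Cdca7l, Fetub, Fmo1, Mme, Olfr1419 and Susd3, all autosomal, and ranged from 6 to 8 with 1 animal left out; they were 6 with a test against a log2 fold change of 0.58 and 9 without a filter. The median SD per gene of 0.18 was 0.28 without a filter, 0.15 at a mean count of at least 50, 0.16 without 531 and 532 (chosen after seeing the data) and 0.175 to 0.187 with 1 animal left out. The common coefficient of variation of 18.2% was 15.1% without 531 and 532, 16.4% with libraries thinned to the smallest, and 16.5% to 20.2% with 1 animal left out. The share of the 10 leading genes, 7.79%, was 6.45% without mitochondrially encoded genes and 7.61% to 7.92% with 1 animal left out. The number of genes holding 50% of counts, 1260, was 1364.5 without mitochondrially encoded genes, 945 with the level per kb and 1245 to 1273 with 1 animal left out. The share of the 20 highest genes per kb, 9.88%, was 15.5% with the longest transcript and 9.71% to 10.0% with 1 animal left out. The 10 lists with more than a 2-fold range were 8 without 531 and 532 and 8 to 10 with 1 animal left out. The first component, at 26.5%, held 31.8% over the 500 most variable genes, 78.0% on unscaled raw counts, 31.3% without 531 and 532 and 29.0% to 33.2% with 1 animal left out. The 98 genes at 2 levels were 56 at a minimum of 5 CPM, and 128, 72 and 105 under the other rules, all chosen after seeing the data. The SD of Ifi202b fell from 2.58 to 0.64 without male 539, the 1 animal listed at 0. Of the 100 genes with the largest SD, 90 were also in the top 100 by tagwise dispersion. Of the 10 smallest SDs, that of every gene but Stat6 moved when library size alone was used. No result turned direction under any setting run. The labels give the sexes no shared replicate numbers. No paired analysis was possible because each animal has its own number. Depth limits genes under 1 CPM, where counting accounts for most of the spread.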

Other observations

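Ren1, the renin gene, differed between animals, and the sexes overlapped. It was at 40.0, 0.435, 0.749 and 49.7 CPM in males and 14.2, 5.88, 11.5 and 1.55 CPM in females, an SD of 2.74 on the log2 scale. Gbp2b, a guanylate-binding protein gene, was at 14.0, 2.06, 0.2498 and 0.366 CPM in males and 25.1, 28.4, 0.517 and 42.0 CPM in females. Ifi202b was at 4.77, 9.75, 0 and 11.3 CPM in males and 7.21, 20.3, 17.4 and 12.6 CPM in females, and male 539 held no count. Ifi202b was lowest in 532 and 539, like most of the 13 interferon genes, whereas Gbp2b was lowest in 539, 543, 538 and 533. Gt(ROSA)26Sor, a non-coding gene on chromosome 6, was at 0.755, 5.49, 4.65 and 1.26 CPM in males and 0.439, 6.97, 3.59 and 11.2 CPM in females, highest in 529. This locus holds the mTmG reporter used in the study. Which of these mice carried the reporter was not given, and its part in these values was not tested.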
